A study of Mus musculus with 8 samples.

Results

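The genes described here encode the granule contents and the maturation programme of neutrophils. The list holds 37 genes chosen by name for their known roles: 8 of primary (azurophil) granules and their biosynthesis, 10 of secondary (specific) granules, 4 of tertiary (gelatinase) granules, 4 transcription factors of granulocyte development, and 11 associated with maturing or activated neutrophils. Of these, 36 had a probe on the array (56 probes in all) among 16593 genes on the array, and Mmp25, a membrane-bound metalloproteinase, had none in the probe annotation used here. For each gene the brightest probe was read. All 36 passed the filter on dim probes and were among the 10040 genes tested. Mmp8 and Cebpa did so through the endotoxin groups alone, since neither PBS array rose above background for them.

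Neutrophils load their granules in the order in which they mature. Promyelocytes make the primary granules, with myeloperoxidase and serine proteases. Myelocytes and metamyelocytes make the secondary granules, with lactoferrin and cathelicidin, and later stages make the tertiary granules, with gelatinase. Granule transcripts are used as markers of these stages, and transcripts for primary granule proteins are low in mature blood neutrophils. In mice the spleen is also a site where granulocytes are produced, and more so during infection.

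RNA came from Gr1+ spleen cells, sorted with magnetic beads, of C57BL/6 females aged 6 to 8 weeks, and was read on Illumina MouseRef-8 bead arrays. The LT group (3 arrays) was given lipopolysaccharide (LPS, an endotoxin of Gram-negative bacteria) into the peritoneum and HY209 (sodium taurodeoxycholate, a bile salt) intravenously 30 min later. The LPS group (3 arrays) received LPS and then PBS, and the PBS group (2 arrays, numbered 1 and 3) received PBS at both injections. Spleens were taken at 48 h in every group, each array stands for cells pooled over mice, and no group received HY209 alone. Pool sizes are given as 10 to 15 spleens in the labels and as 30 to 40 in the design text, and p-values measure the spread between these pooled samples. Per the labels, more than 95% of the Gr1+ cells carried CD11b. In such bulk samples, fewer cells of a type and less RNA per cell cannot be told apart.

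Intensities below are the deposited values on a linear scale, where background reaches 169.9 and the brightest value is 66399. On each array 12808 of 25697 probes (49.8%) lay above background. The number of arrays limits the precision of every value. Log2 changes and folds come from a limma fit to all 8 arrays after background correction, with the standard error after ±, so that a fold is not the plain ratio of the intensities. A gene is said to be higher or lower where its Benjamini-Hochberg adjusted p, over all genes tested, is under 0.05. The neutrophil marker S100a8, a calcium-binding protein abundant in these cells, had an intensity of 61212 ± 1664 in LT arrays, 62004 ± 501 in LPS arrays and 58814 ± 953 in PBS arrays (SD, n = 3, 3 and 2), near the top of the scale in each group. The Gr1 antigen gene Ly6g had no probe in the annotation.

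The groups also differed in genes of other cell types. The summed intensity of 13 macrophage markers on the array (of 14 listed) was 36888 to 41255 in LT arrays, 49009 to 52346 in LPS arrays and 195219 to 200272 in PBS arrays. For 10 B cell markers (of 11) the sum was 19831 to 21714 in LT arrays, 13026 to 13612 in LPS arrays and 69339 to 71458 in PBS arrays. For 8 erythroid markers (of 11) it was 48158 to 60393 in LT arrays, 27599 to 30687 in LPS arrays and 82929 to 84378 in PBS arrays. Most of the erythroid sum came from Hba-a1 (means of 45389 in LT, 25759 in LPS and 65233 in PBS arrays), which in PBS arrays lay near the top of the scale. For 8 endothelial markers the sum was 3828 to 5846 in LT arrays, 2066 to 2168 in LPS arrays and 7703 to 8648 in PBS arrays. For 11 T and NK cell markers (of 12) it was 13404 to 17870 in LT arrays, 13333 to 13885 in LPS arrays and 44060 to 45902 in PBS arrays. For 7 monocyte markers (of 10) it was 18825 to 19995 in LT arrays, 18134 to 18603 in LPS arrays and 15459.5 to 16968 in PBS arrays, most of it from Ly6c1. Without Ly6c1 the monocyte sum was 2976 to 4040.3 in LT arrays, 2989 to 3181 in LPS arrays and 6502 to 6752 in PBS arrays. Of the 4 monocyte markers tested, 1 (Ly6c1) was higher and 3 (F13a1, Cx3cr1 and Klf4) were lower in LPS than in PBS arrays. Among all genes tested, 26.2% were higher and 30.6% lower in that comparison. The PBS arrays thus held the most signal for macrophages and lymphocytes, and the LT arrays held more B cell, erythroid and endothelial signal and less macrophage signal than the LPS arrays. Below background on all 8 arrays were Cd5l among the macrophage markers, Ccr2, Nr4a1 and Ms4a4c among the monocyte markers, Pax5 among the B cell markers, and Cd8a, Ncr1 and Gzma among the T and NK cell markers. The part of these cells in the results below was not tested.

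Upstream sequences of 6 granule genes are shown. Mpo, Ctsg and Ms4a3 are the primary granule and promyelocyte genes called higher in LT than in LPS arrays. These calls rest on few arrays or on 1 probe. The share called higher, 8.33% of the list, is not far from the 6.27% of all genes. Ngp, Camp and Ltf are secondary granule genes of 1 chromosome whose changes after LPS differed. The sequences are the 250 bases before the annotated start in RefSeq (GRCm38.p6), 5′ to 3′ on the gene's strand. Capitals mark matches on either strand to TTGCNNAA (a C/EBP motif), GAGGAA (an ETS and PU.1 core) or TGTGGT (a RUNX core).
Mpo (chr11:87793534-87793783, plus strand): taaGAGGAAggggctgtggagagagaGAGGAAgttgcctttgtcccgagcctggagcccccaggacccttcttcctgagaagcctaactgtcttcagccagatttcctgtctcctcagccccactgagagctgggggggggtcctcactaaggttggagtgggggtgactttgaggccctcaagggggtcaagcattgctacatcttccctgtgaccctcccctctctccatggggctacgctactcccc
Ctsg (chr14:56102575-56102824, minus strand): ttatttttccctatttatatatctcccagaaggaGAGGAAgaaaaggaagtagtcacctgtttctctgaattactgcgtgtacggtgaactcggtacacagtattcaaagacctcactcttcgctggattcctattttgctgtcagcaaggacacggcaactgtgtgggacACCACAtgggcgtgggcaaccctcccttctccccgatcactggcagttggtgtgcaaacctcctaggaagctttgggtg
Ms4a3 (chr19:11640852-11641101, minus strand): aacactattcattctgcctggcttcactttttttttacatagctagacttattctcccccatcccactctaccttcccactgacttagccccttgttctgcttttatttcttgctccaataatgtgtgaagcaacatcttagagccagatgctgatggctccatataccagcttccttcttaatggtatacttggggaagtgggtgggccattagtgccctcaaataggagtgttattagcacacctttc
Ngp (chr9:110419558-110419807, plus strand): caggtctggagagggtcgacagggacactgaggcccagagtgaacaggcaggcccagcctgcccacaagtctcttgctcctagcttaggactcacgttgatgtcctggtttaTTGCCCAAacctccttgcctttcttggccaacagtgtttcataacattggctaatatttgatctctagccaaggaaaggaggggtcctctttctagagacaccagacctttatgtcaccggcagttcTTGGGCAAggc
Camp (chr9:109849457-109849706, minus strand): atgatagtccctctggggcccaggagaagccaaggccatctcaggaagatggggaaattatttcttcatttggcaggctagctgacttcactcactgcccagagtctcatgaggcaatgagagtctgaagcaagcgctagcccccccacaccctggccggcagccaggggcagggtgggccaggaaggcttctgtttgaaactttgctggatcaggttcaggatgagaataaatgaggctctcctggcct
Ltf (chr9:111019042-111019291, plus strand): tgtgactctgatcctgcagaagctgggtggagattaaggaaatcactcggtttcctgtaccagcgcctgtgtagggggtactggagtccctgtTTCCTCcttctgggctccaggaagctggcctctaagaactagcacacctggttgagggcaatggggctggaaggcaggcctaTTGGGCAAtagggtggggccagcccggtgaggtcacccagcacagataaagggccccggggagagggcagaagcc
The Ngp window held 2 C/EBP matches, at 11 and 138 bases before the start, and the Ltf window held 1, at 75 bases. Camp, which lies 8 protein-coding genes from Ngp on chromosome 9, held no match to any of the 3 motifs in this window. Mpo held 2 ETS matches and Ctsg 1, and Ms4a3 held none of the motifs.
Windows were found for 32 of the 37 genes, and of the first window listed for each gene 9 (28.1%) held the C/EBP motif, 15 (46.9%) the ETS motif and 3 (9.38%) the RUNX motif. Among 27025 genes with a window, each by its first window, the shares were 9.55%, 23.1% and 14.2%. For 3 of the listed genes a second window was given, and counting it adds Srgn to the RUNX matches (4 genes). No match to one motif overlapped a match to another in the windows of the listed genes. These matches describe the letters of the windows and not binding.

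**Figure D1:**
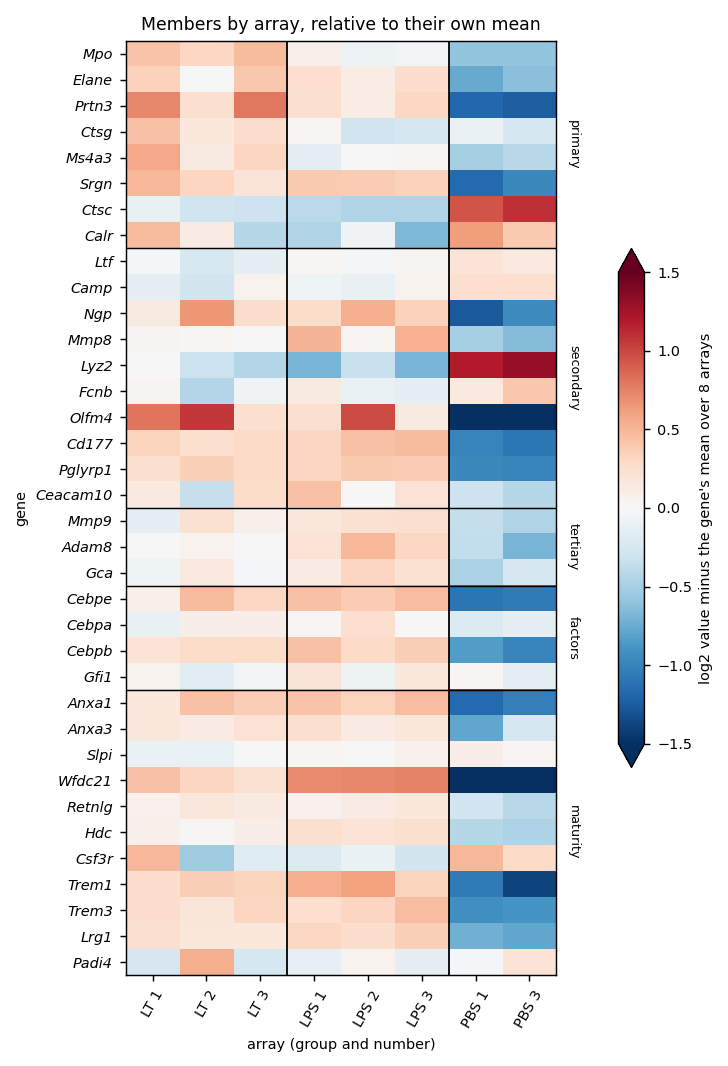
Each of the 36 genes (rows, grouped into primary, secondary and tertiary granule genes, transcription factors and maturity genes) on each of the 8 arrays (columns), as the log2 value minus the gene's mean over the arrays, with colours limited to ±1.5. The columns fall into the endotoxin groups on the left and PBS on the right for most genes, with Ctsc, Lyz2, Calr and Ltf among those brightest in PBS.

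The first comparison asks what the endotoxin did to granule and maturation genes in the Gr1+ fraction. After LPS the arrays carried more transcript for most of the list, including both early and late granule genes, and less for a few. Of the 36 genes, 24 were higher and 5 lower in LPS arrays than in PBS arrays, against 26.2% higher and 30.6% lower among all genes tested. The median log2 change was 0.65 (0.62 with Mmp8 and Cebpa at the bounds defined below), against 0.00 over all genes. For 32 of the 36 genes every LPS array lay on one side of the PBS arrays, against 72.1% of all genes. Mmp8 and Cebpa are among the 32. They passed the filter through the endotoxin groups alone and are no support for that count. The genes that fell were Ctsc, Calr, Lyz2, Camp and Csf3r, of which 2 remained called without PBS 1 and 3 without PBS 3 or LPS 1.

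Among primary granule genes, 5 of 8 were higher and 2 lower after LPS (median log2 change 0.50). Mpo, the heme peroxidase that makes hypochlorous acid, had an intensity of 492, 459 and 505 in the LT arrays, 400.0, 367 and 372 in the LPS arrays, and 277 and 276 in the PBS arrays. The groups did not overlap, with PBS lowest, and the change from LPS was 0.58 ± 0.09, adjusted p = 0.00019, or 0.35 with the mean of its 3 probes. Prtn3, which encodes proteinase 3, lies directly beside Elane on chromosome 10 in the RefSeq annotation. Prtn3 was at 852, 629 and 889 in the LT arrays, 628, 582 and 659 in the LPS arrays, and 278 and 271 in the PBS arrays. Its rise after LPS was 2.68-fold (1.42 ± 0.15, adjusted p = 4.8e-06), and no LPS array came near the PBS level. Elane, which encodes neutrophil elastase, was at 307, 255 and 317 in the LT arrays, 291, 271 and 294 in the LPS arrays, and 179.5 and 189.5 in the PBS arrays. It rose 1.86-fold after LPS (0.90 ± 0.12, adjusted p = 6.3e-05), with PBS arrays only a little above background.

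Ctsg, which encodes cathepsin G, a further serine protease of these granules, did not pass the test after LPS. It was at 273, 236 and 249 in the LT arrays, 221, 191 and 194 in the LPS arrays, and 208 and 194 in the PBS arrays. LPS and PBS arrays overlapped, and the log2 change was 0.00 ± 0.12 (adjusted p = 1.0). Ms4a3, a membrane protein of granulocyte and monocyte progenitors, was at 279.8, 225 and 246 in the LT arrays, 196, 210.0 and 214 in the LPS arrays, and 168 and 174 in the PBS arrays. The LPS arrays all exceeded the PBS arrays (0.42 ± 0.12, adjusted p = 0.012), but without PBS 1 the adjusted p was 0.084. Srgn, the proteoglycan serglycin that packs proteases into granules, was at 4246, 3782 and 3473 in the LT arrays, 3948, 3926 and 3832 in the LPS arrays, and 1393 and 1592 in the PBS arrays. It rose 2.70-fold after LPS (1.43 ± 0.11, adjusted p = 3.2e-07).

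The 2 primary granule genes that fell were Ctsc and Calr. Ctsc, the protease that activates elastase, proteinase 3 and cathepsin G, was at 12087, 10566 and 10478 in the LT arrays, 9827, 9519 and 9492 in the LPS arrays, and 24858 and 27705 in the PBS arrays. It fell 2.74-fold (-1.46 ± 0.10, adjusted p = 1.4e-07), and all 3 of its probes fell. Ctsc is also expressed in macrophages. Of the 12 macrophage markers tested, 10 were lower in LPS than in PBS arrays and 1, Marco, was higher (2.03 ± 0.16). Over all genes tested, 30.6% were lower and 26.2% higher. The part of macrophages in the change of Ctsc was not tested. Calr, an endoplasmic reticulum chaperone that helps to fold myeloperoxidase, averaged 973 ± 273 in LT arrays, 719.8 ± 146 in LPS arrays and 1269 ± 135 in PBS arrays. It changed by -0.90 ± 0.23 after LPS (adjusted p = 0.0054), and without PBS 1 the adjusted p was 0.057.

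**Figure D2:**
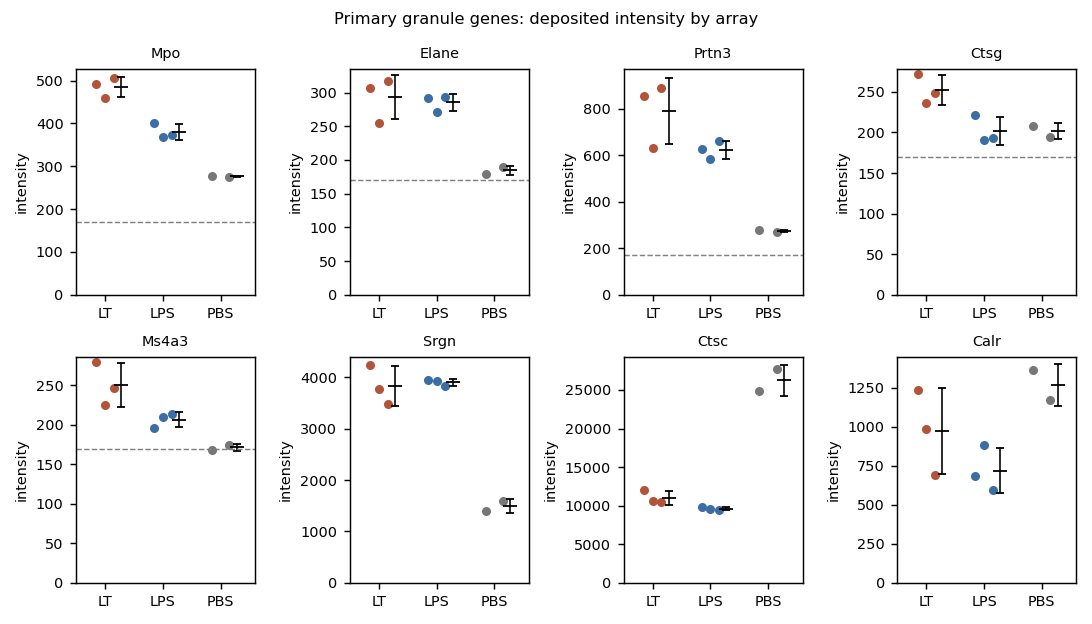
Deposited intensity (linear axis from 0) of the 8 primary granule genes in the LT, LPS and PBS arrays, with a point for each array, the mean and SD in black, and a dashed line at the background threshold of 169.9 in the panels of dim genes. LT arrays stand highest for Mpo, Ctsg and Ms4a3, both endotoxin groups stand above PBS for Prtn3, Elane and Srgn, and PBS arrays stand highest for Ctsc.

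Secondary granule genes split after LPS, with 6 of 10 higher and 2 lower (median log2 change 0.76, or 0.60 with Mmp8 at its bound). Ngp, which encodes neutrophilic granule protein, a relative of the cathelicidins, was at 24327, 34768 and 26534 in the LT arrays, 26870.5, 32003 and 28223 in the LPS arrays, and 9311 and 11425 in the PBS arrays. It rose 2.82-fold (1.50 ± 0.15, adjusted p = 4.3e-06). Camp, which encodes the cathelicidin itself, was at 18316, 16814 and 21018 in the LT arrays, 19366, 18896 and 21051 in the LPS arrays, and 24130.1 and 24252 in the PBS arrays. All LPS arrays lay below the PBS arrays, and the change was small (-0.29 ± 0.11, adjusted p = 0.034). That call did not hold without LPS 1, LPS 2, PBS 1 or PBS 3 (adjusted p = 0.082, 0.086, 0.12 and 0.13). Ngp and Camp, whose upstream windows are shown above, thus differed in direction between the same arrays.

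Ltf, which encodes the iron-binding protein lactoferrin, had 2 probes that differed in size of change. The brighter was at 56289, 48139 and 51421 in the LT arrays, 58438, 56510.1 and 58693 in the LPS arrays, and 65787 and 63374 in the PBS arrays, close to the top of the scale. Its change after LPS was -0.16 ± 0.09 (adjusted p = 0.17). The dimmer probe was at 1439, 753 and 1163 in the LT arrays, 1160.0, 993 and 1141 in the LPS arrays, and 3724 and 3853 in the PBS arrays. There the change was -1.86 ± 0.22, adjusted p = 2.1e-05, so that both probes were lowest in the endotoxin groups and only the dimmer one passed the test after LPS. Lyz2, which encodes lysozyme and is also abundant in macrophages and monocytes, was at 12963, 10406 and 9629 in the LT arrays, 8066, 10385 and 8074 in the LPS arrays, and 29559.5 and 32249 in the PBS arrays. It fell 3.54-fold (-1.82 ± 0.14, adjusted p = 5.6e-07), and its other probes fell by 0.56 and by 0.87 on the log2 scale.

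The genes that rose included surface and antibacterial proteins. Olfm4, an olfactomedin domain protein found in a subset of neutrophils, had the largest rise of the secondary granule genes and a wide spread. It was at 2412, 2869 and 1652 in the LT arrays, 1648, 2709 and 1543 in the LPS arrays, and 430.1 and 522 in the PBS arrays. The rise was 4.52-fold (2.18 ± 0.26, adjusted p = 1.7e-05), and LPS 2 stood well above the other LPS arrays. Pglyrp1, a peptidoglycan recognition protein that kills bacteria, was at 56510.1, 61338 and 58693 in the LT arrays, 59928, 63055 and 62239 in the LPS arrays, and 24510.5 and 24021 in the PBS arrays. It rose 2.55-fold (1.35 ± 0.09, adjusted p = 8.6e-08), up to near the top of the scale. Cd177, a surface glycoprotein of neutrophils, was at 25069, 23406 and 24130.1 in the LT arrays, 24747, 26870.5 and 27559 in the LPS arrays, and 9969 and 9378 in the PBS arrays. It rose 2.74-fold (1.45 ± 0.09, adjusted p = 7.2e-08).

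Mmp8, neutrophil collagenase, was dim, at 194, 193 and 191 in the LT arrays, 243, 193 and 244 in the LPS arrays, and 155 and 146 in the PBS arrays. Both PBS arrays were below background, so the rise is given as at least 1.33-fold on the deposited scale (means of 227 in LPS and 150.2 in PBS arrays) and at least 1.53-fold on the corrected scale (adjusted p = 0.00011), where subtracting background widens ratios. A bound is the mean over the brighter group against the higher of the background threshold and the measured value on each array of the dimmer one. Mmp8 passed the filter through the endotoxin groups alone. The counts of higher genes against PBS include it, but for that reason its call is no support for them. Ceacam10, a member of the carcinoembryonic antigen family that lies beside Cd177 on chromosome 7, was also dim and rose by 0.59 ± 0.17, adjusted p = 0.012, a call lost without PBS 3 (adjusted p = 0.088). Fcnb, the lectin ficolin B, changed by -0.31 ± 0.15, adjusted p = 0.088, and was called lower without LT 2 (adjusted p = 0.034). Its dimmer probe changed by -0.46 ± 0.10, adjusted p = 0.0028 in a limma fit of all probes past the filter. With the mean of its probes Fcnb was called lower (adjusted p = 0.0075).

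**Figure D3:**
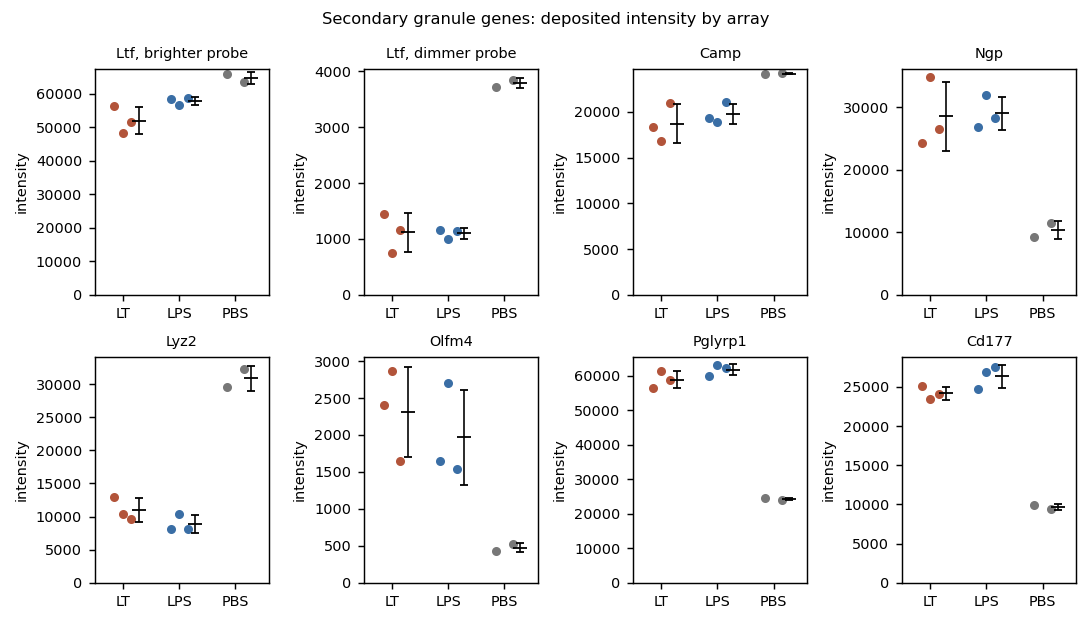
Deposited intensity (linear axis from 0) of secondary granule genes in the LT, LPS and PBS arrays, with a point for each array and the mean and SD in black, and both probes of Ltf. Endotoxin arrays stand above PBS for Ngp, Olfm4, Pglyrp1 and Cd177, and below PBS for Camp, Lyz2 and the dimmer Ltf probe.

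All 3 tertiary granule genes measured were higher after LPS. Mmp9, which encodes gelatinase B, was at 22166, 28433 and 25449 in the LT arrays, 27177, 28433 and 28632 in the LPS arrays, and 18896 and 17758 in the PBS arrays. It rose 1.53-fold (0.62 ± 0.11, adjusted p = 0.00042). The surface metalloproteinase Adam8 rose 1.84-fold (0.88 ± 0.12, adjusted p = 4.4e-05) and the calcium-binding Gca (grancalcin) rose 1.50-fold (0.59 ± 0.11, adjusted p = 0.00054). These changes were smaller than those of Ngp or Cd177 in the fit, a difference between genes that was not tested.

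Of the transcription factors, 2 of 4 were higher. Cebpe, the C/EBP factor required for secondary granule genes and terminal granulocyte maturation, was at 3911, 5142 and 4593 in the LT arrays, 4999, 4824 and 5085 in the LPS arrays, and 1776 and 1837 in the PBS arrays. It rose 2.82-fold (1.50 ± 0.11, adjusted p = 3.8e-07), and its second probe rose as well. Cebpb, the C/EBP factor used in emergency granulopoiesis, averaged 54066 ± 1509 in LT arrays, 58352 ± 3030.1 in LPS arrays and 24088 ± 1796 in PBS arrays, and rose 2.43-fold (1.28 ± 0.09, adjusted p = 2.5e-07). Cebpa, needed for entry into the granulocyte lineage, lay near background, at 177 ± 8.42 in LT arrays, 182 ± 11.6 in LPS arrays and 163 ± 2.77 in PBS arrays, and did not pass the test (adjusted p = 0.059). Gfi1, a repressor needed for neutrophil differentiation, changed by 0.16 ± 0.11, adjusted p = 0.24.

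Among the 11 maturity genes, 8 were higher and 1 lower after LPS (median log2 change 0.70). Wfdc21, a small secreted protein with a whey acidic protein domain, had the largest rise of the whole list. It was at 1156, 1072 and 1004 in the LT arrays, 1380.1, 1393 and 1406 in the LPS arrays, and 343 and 329 in the PBS arrays. The rise was 4.94-fold (2.31 ± 0.09, adjusted p = 2.0e-09). Trem1, a receptor that amplifies inflammatory signals in neutrophils and monocytes, was at 5439, 5817 and 5689 in the LT arrays, 6568, 6847 and 5701 in the LPS arrays, and 2202 and 1769.8 in the PBS arrays. It rose 3.30-fold (1.72 ± 0.12, adjusted p = 1.5e-07), and its neighbour on chromosome 17, Trem3, rose 2.37-fold (1.25 ± 0.10, adjusted p = 4.1e-07). Anxa1, a calcium-dependent membrane-binding protein that limits inflammation, was at 666, 794 and 755 in the LT arrays, 786, 739 and 804 in the LPS arrays, and 306 and 331 in the PBS arrays. It rose 2.83-fold (1.50 ± 0.11, adjusted p = 1.9e-07).

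Hdc, which encodes histidine decarboxylase and is known from basophils and mast cells as well as neutrophils, was at 47569.5, 45965 and 48397 in the LT arrays, 53556, 52323 and 53556 in the LPS arrays, and 33695 and 32839.5 in the PBS arrays. It rose 1.60-fold (0.68 ± 0.08, adjusted p = 2.4e-05). The sum over 13 basophil, mast cell and eosinophil markers was 2775 to 2912 in LT arrays, 2783 to 2894 in LPS arrays and 4443 to 4578 in PBS arrays. Of these markers, Mcpt8, Ms4a2, Epx and Siglecf were below background on all 8 arrays. Others were above background on every array, such as Prg2 (means of 817 in LT, 909 in LPS and 936 in PBS arrays) and Gata2 (284, 204 and 345). Ccr3 was above background in PBS arrays alone (mean 1450). The part of these cells in the change of Hdc was not tested. Of the others that rose, the membrane-binding Anxa3 changed by 0.70 ± 0.13, the resistin-like Retnlg by 0.47 ± 0.09 and the secreted glycoprotein Lrg1 by 1.06 ± 0.09.

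Csf3r, the receptor for the growth factor G-CSF, was the maturity gene that fell. Its brightest probe was at 11523, 5684 and 7229.8 in the LT arrays, 7077, 7642 and 6778 in the LPS arrays, and 11546 and 9998 in the PBS arrays. LPS arrays lay below PBS arrays (-0.59 ± 0.22, adjusted p = 0.039), while LT 1 lay within the PBS range. The call was lost without LPS 1, LPS 3, PBS 1 or PBS 3 (adjusted p = 0.073, 0.084, 0.20 and 0.078), and the 3 dimmer probes past the filter gave adjusted p = 0.36, 0.28 and 0.10. Slpi, an inhibitor of elastase and cathepsin G, changed by -0.04 ± 0.09, adjusted p = 0.74. Padi4, the enzyme that citrullinates histones when neutrophils release chromatin traps, changed by -0.16 ± 0.20, adjusted p = 0.53.

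**Figure D4:**
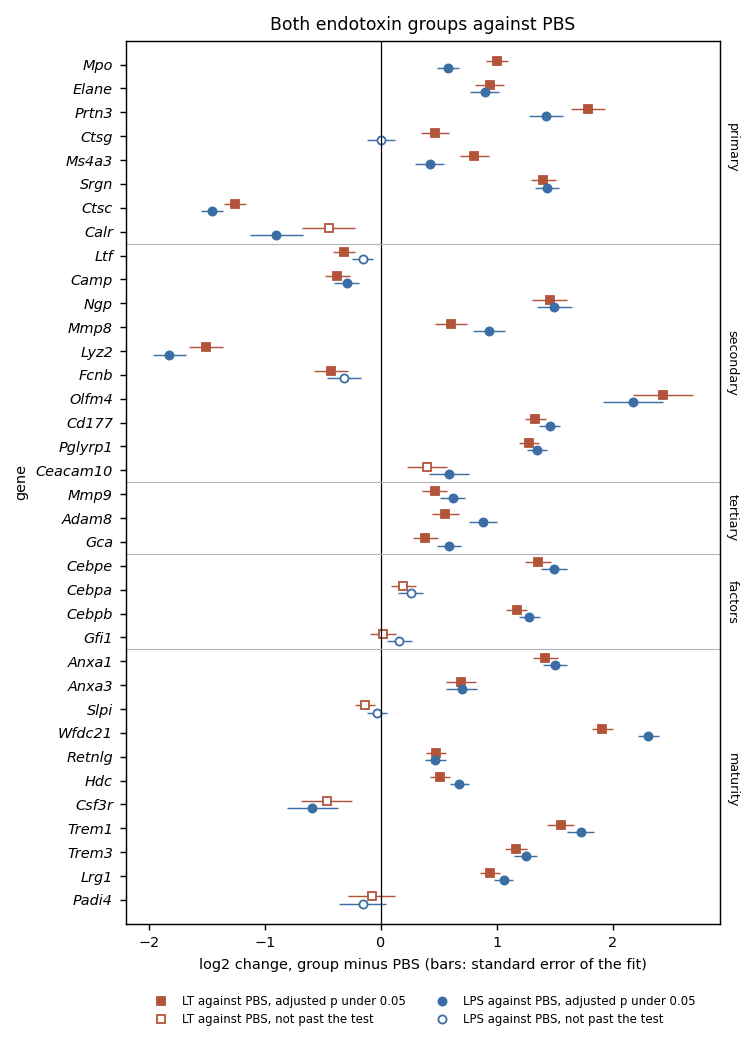
Log2 change against PBS of each of the 36 genes, LT minus PBS as squares and LPS minus PBS as circles, with the standard error of the fit as bars and filled symbols where the adjusted p is under 0.05. Both sets share the same 2 PBS arrays, and the changes run from -1.82 (Lyz2, LPS) to 2.43 (Olfm4, LT).

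The second comparison asks what HY209 changed in mice that had received LPS. Few granule and maturation genes passed the test between LT and LPS arrays, and the 3 that were higher in LT belong to the primary granule and promyelocyte genes. Of the 36 genes, Mpo, Ctsg and Ms4a3 were higher and Wfdc21 was lower in LT arrays, against 6.27% higher and 3.59% lower among all genes tested. The list's own shares, 8.33% higher and 2.78% lower, are not far from those of all genes. For 10 of the 36 no LT array lay among the LPS arrays, against 29.6% of all genes. The median log2 change was -0.08 over the list and -0.01 over all genes.

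The 3 genes that rose are all in the primary granule group, where the median log2 change was 0.37 and 7 of 8 estimates were positive. Mpo was 1.34-fold higher in LT arrays (0.42 ± 0.08, adjusted p = 0.0099), and each LT array exceeded each LPS array. Its other 2 probes lay near background and did not pass the test, and with the mean of its probes the call was lost (adjusted p = 0.16). Ctsg was 1.38-fold higher (0.47 ± 0.11, adjusted p = 0.021), with every LT array above every LPS and PBS array. Ms4a3 was 1.31-fold higher (0.38 ± 0.11, adjusted p = 0.048). Its other probe did not pass the filter on dim probes, with means of 154.6 in LT, 160.0 in LPS and 160.3 in PBS arrays. All 3 are dim, with 505 (Mpo in LT 3) as the highest intensity.

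These calls rest on few arrays. That of Ctsg was lost without LT 1, LPS 2 or LPS 3 (adjusted p = 0.094, 0.069 and 0.075), and that of Ms4a3 was lost without any single array but LT 2 (adjusted p = 0.076 to 0.16), so that without LT 1, LPS 2 or LPS 3 a single gene of the list remained higher. Mpo kept its call without each array in turn. Prtn3 was 1.28-fold higher in the fit but did not pass the test (0.36 ± 0.13, adjusted p = 0.11). With a block for the replicate number in limma it was called higher (adjusted p = 0.033). LT 1 and LT 3 exceeded all LPS arrays for Prtn3 and LT 2 did not, and without LT 2 the adjusted p was 0.0054. Elane had a change of 0.04 ± 0.11 (adjusted p = 0.85), so that the neighbouring genes Prtn3 and Elane had different estimates, a difference that was not tested.

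Among the markers tested, 6 of 9 for B cells, 6 of 8 erythroid and 7 of 8 endothelial ones were also higher in LT than in LPS arrays, and 6 of 12 for macrophages were lower. Over all genes tested, 6.27% were higher and 3.59% lower. Within the LT group, LT 2 was the lowest array for each of Mpo, Elane, Prtn3, Ctsg and Ms4a3. LT 2 also had the lowest sums of the LT arrays for erythroid, endothelial, macrophage and T and NK cell markers, while for B cell markers LT 1 was lowest. The sum over 7 progenitor markers on the array (of 8 listed) was 2975 to 3855 in LT arrays, 3048 to 3184 in LPS arrays and 6746 to 7228 in PBS arrays, most of it from Cd27, which lymphocytes also express. Without Cd27 the progenitor sum was 1165 to 1189 in LT arrays, 1151 to 1266 in LPS arrays and 1250.0 to 1271 in PBS arrays. By limma, none of the 5 progenitor markers tested passed the test between LT and LPS (0 at an unadjusted p under 0.05), Erg was below background on all arrays, and Cd34 was at 172, 197 and 168 in LT arrays, 192, 177 and 182 in LPS arrays, and 184 and 193 in PBS arrays. The part of these markers in the primary granule result was not tested.

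Other primary granule genes had no call with HY209. Ctsc changed by 0.20 ± 0.09, adjusted p = 0.18, with LT arrays all above LPS arrays, and Srgn by -0.03 ± 0.10, adjusted p = 0.88. Calr changed by 0.45 ± 0.21, adjusted p = 0.19, and the call was made without LT 3 (adjusted p = 0.037).

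None of the 10 secondary granule genes passed the test between LT and LPS, with limma estimates from -0.32 for Mmp8 to 0.32 for Lyz2 (2 of the 10 positive). At an unadjusted p under 0.05, 1 (Lyz2) was higher and 1 (Mmp8) lower. Here and elsewhere, counts at an unadjusted p stand without a share over all genes, which was not computed. The other probes of Lyz2 changed by -0.06 and -0.17, and with the mean of its probes the change of Lyz2 was 0.03. Mmp8 had an adjusted p of 0.12, and 0.013 without LPS 2, the array that lay with the LT group. Ngp changed by -0.04 ± 0.14, adjusted p = 0.89, Camp by -0.08 ± 0.10, adjusted p = 0.62, and Ltf by -0.16 ± 0.08, adjusted p = 0.26 at its brighter probe. Olfm4, with a wide spread in both groups, changed by 0.25 ± 0.23, adjusted p = 0.53.

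All 3 tertiary granule genes and all 4 transcription factors had estimates below 0 in the limma fit, and none passed the test, with 1 tertiary granule gene (Adam8) and 0 transcription factors at an unadjusted p under 0.05. Adam8 came nearest (-0.33 ± 0.10, adjusted p = 0.073), with its LT arrays all below the LPS arrays. Mmp9 changed by -0.16 ± 0.10, Gca by -0.21 ± 0.10, Cebpe by -0.14 ± 0.10 and Cebpb by -0.11 ± 0.08. Adam8 was called lower without background correction and with the mean of its probes (adjusted p = 0.042 and 0.046).

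Of the maturity genes, Wfdc21 was 1.32-fold lower in LT arrays than in LPS arrays (-0.40 ± 0.08, adjusted p = 0.013). No LT array reached the lowest LPS array, and the call held without each array in turn. The other 10 maturity genes did not pass the test, with estimates from -0.17 to 0.12. Hdc (-0.17 ± 0.07) and Lrg1 (-0.12 ± 0.08) had LT arrays that all lay below the LPS arrays. Csf3r had the widest spread of the LT arrays, with LT 1 far above the others, and changed by 0.12 ± 0.20, adjusted p = 0.74.

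**Figure D5:**
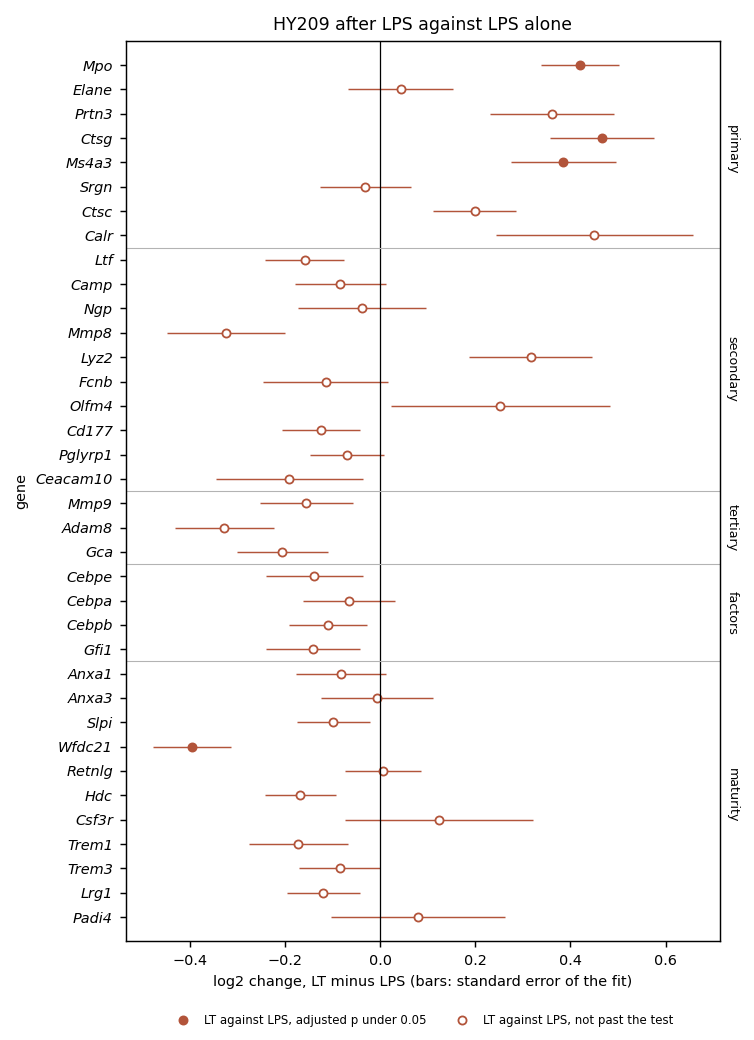
Log2 change with HY209, LT minus LPS, of each of the 36 genes with the standard error of the fit as bars and filled points where the adjusted p is under 0.05. Mpo, Ctsg and Ms4a3 lie to the right and Wfdc21 to the left, while tertiary granule genes and transcription factors lie left of 0, Adam8 the farthest among them at -0.33.

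The third comparison sets the LT arrays against the PBS arrays, which also served the first one, so its values are given side by side and not as a second line of evidence. Of the 36 genes, 24 were higher and 5 lower in LT arrays, against 22.1% higher and 26.5% lower among all genes tested. For 31 of the 36 the LT arrays lay apart from the PBS arrays, against 65.4% of all genes. Mmp8 and Cebpa, which passed the filter through the endotoxin groups alone, are among the 31 and are no support for that count. The median log2 change was 0.58, or 0.53 with Mmp8 and Cebpa at their bounds. Among primary granule genes 6 of 8 were higher and 1 lower, with a median log2 change of 0.87.

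Mpo was 2.0-fold higher in LT than in PBS arrays (1.0 ± 0.09, adjusted p = 2.8e-06). Its other probes changed by 0.31 and 0.24 (adjusted p = 0.060 and 0.16), and with the mean of its probes the change was 0.52. Prtn3 was 3.45-fold higher (1.79 ± 0.15, adjusted p = 9.2e-07). Ctsg was 1.38-fold higher (0.47 ± 0.12, adjusted p = 0.0073), with an adjusted p of 0.081 without PBS 3. Ms4a3 changed by 0.81 ± 0.12, adjusted p = 0.00018, Elane by 0.94 ± 0.12, adjusted p = 5.6e-05 and Srgn by 1.40 ± 0.11, adjusted p = 5.2e-07. Ctsc was the primary granule gene that was lower (-1.26 ± 0.10, adjusted p = 6.3e-07), and Calr did not pass the test (-0.45 ± 0.23, adjusted p = 0.13).

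Among secondary granule genes 5 of 10 were higher and 4 lower. Olfm4 was 5.38-fold higher (2.43 ± 0.26, adjusted p = 9.0e-06), followed by Ngp (1.46 ± 0.15), Cd177 (1.33 ± 0.09) and Pglyrp1 (1.28 ± 0.09), and Mmp8 was at least 1.14-fold higher on the deposited scale and at least 1.23-fold on the corrected scale. Lyz2 was 2.84-fold lower (-1.51 ± 0.14, adjusted p = 3.8e-06). Ltf, Camp and Fcnb were lower by smaller amounts (-0.32 ± 0.09, adjusted p = 0.014 for the brighter Ltf probe, -0.38 ± 0.11, adjusted p = 0.012 for Camp, -0.43 ± 0.15, adjusted p = 0.030 for Fcnb). Without PBS 1 or PBS 3 the adjusted p was 0.096 and 0.054 for Ltf and 0.061 and 0.066 for Camp, and for Fcnb it was 0.084 without LT 2 and 0.25 without PBS 3, so that the count of lower genes in the list was 3 without PBS 1 and 2 without PBS 3. Ceacam10, not called in the fit (adjusted p = 0.077), was called higher without LT 2 (adjusted p = 0.0047). At the dimmer Ltf probe the change was -1.88 ± 0.22, adjusted p = 2.6e-05, and at the dimmer Fcnb probe it was -0.57 ± 0.10, adjusted p = 0.00077.

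All 3 tertiary granule genes were higher, Mmp9 by 0.46 ± 0.11, Adam8 by 0.55 ± 0.12 and Gca by 0.38 ± 0.11, the last with an adjusted p of 0.14 without PBS 1. Cebpe changed by 1.36 ± 0.11, adjusted p = 1.1e-06 and Cebpb by 1.17 ± 0.09, adjusted p = 7.0e-07, while Cebpa and Gfi1 did not pass the test. Of the maturity genes 8 of 11 were higher and 0 lower in the limma fit (0 lower also at an unadjusted p under 0.05). Without LT 1, Csf3r was called lower (adjusted p = 0.0011), as was Calr (0.030), so that 7 genes of the list were lower. In the limma fit of all probes past the filter, the dimmer Csf3r probes changed by -0.55, -0.13 and -0.02 (adjusted p = 0.034, 0.49 and 0.91). Padi4 was called lower without LT 2 (adjusted p = 0.025). Wfdc21 was 3.76-fold higher (1.91 ± 0.09, adjusted p = 1.2e-08), Trem1 changed by 1.55 ± 0.12, Anxa1 by 1.42 ± 0.11, Trem3 by 1.16 ± 0.10 and Hdc by 0.51 ± 0.08.

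Further genes of the same programme were read from 2 additional lists. Of 24 genes of granule contents and exocytosis, 21 were tested, and 15 were higher and 3 lower in LPS than in PBS arrays (median log2 change 0.57). Over all genes tested, 26.2% were higher and 30.6% lower. Qsox1, a sulfhydryl oxidase, changed by 3.60 ± 0.10, adjusted p = 1.6e-10, the granule membrane tetraspanin Cd63 by 2.22 ± 0.10, adjusted p = 6.2e-09 and the chitinase-like Chil1 by 1.90 ± 0.09, adjusted p = 6.1e-09. The haptoglobin gene Hp changed by 1.32 ± 0.11. The falls were Igfbp4 (-2.02 ± 0.17), the cytotoxic granule gene Nkg7 (-1.61 ± 0.18) and the heparanase Hpse (-1.19 ± 0.12), the last named after its value was seen. In LT against LPS arrays limma called 0 higher and 1 lower (3 and 5 at an unadjusted p under 0.05), namely Unc13d, which encodes the granule priming factor Munc13-4 (-0.41 ± 0.09, adjusted p = 0.015). The share lower was 4.76% in this list and 3.59% over all genes, of which 6.27% were higher. In LT against PBS arrays 13 were higher and 3 lower, against 22.1% higher and 26.5% lower over all genes. Ptx3 is counted among the higher genes in both comparisons with PBS. It passed the filter through the LT arrays alone, with means of 177 in LT, 157 in LPS and 129 in PBS arrays. All LPS and PBS arrays lay below background for Ptx3, so its calls are no support for these counts.

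Of 24 further genes of neutrophil maturity and activation, 19 were tested, and 13 were higher and 1 lower in LPS than in PBS arrays (median log2 change 0.94). The shares over all genes were 26.2% higher and 30.6% lower. Il1r2, a decoy receptor for interleukin-1, changed by 3.02 ± 0.09, adjusted p = 2.9e-10, the lectin Clec4e by 2.74 ± 0.10, adjusted p = 6.0e-10, the factor Klf5 by 2.63 ± 0.10, adjusted p = 1.1e-09 and Itgam, which encodes CD11b, by 2.43 ± 0.16, adjusted p = 1.1e-07. Spi1, which encodes PU.1, a master factor of myeloid cells, changed by 2.05 ± 0.15, adjusted p = 3.4e-07. Mxd1, a MYC antagonist induced as granulocytes differentiate, changed by 2.09 ± 0.12. The 1 gene that fell, named after its value was seen, was the chemokine receptor Cxcr1 (-1.66 ± 0.23, adjusted p = 7.1e-05). In LT against LPS arrays limma called 0 higher and 2 lower (0 and 3 at an unadjusted p under 0.05), namely Clec4e (-0.36 ± 0.09, adjusted p = 0.022) and Cxcr4, the receptor that retains neutrophils in the marrow (-0.37 ± 0.10, adjusted p = 0.045). The share lower was 10.5% here and 3.59% over all genes, of which 6.27% were higher. In LT against PBS arrays 12 were higher and 2 lower, against 22.1% higher and 26.5% lower over all genes.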

How the data were processed

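Gene expression was measured in 8 arrays of pooled Gr1+ spleen cells, and groups were taken from the sample titles. In its description, PBS 3 is numbered 2. The authors deposited intensity values on a linear scale, 1 column for each array, whose quantiles differ by at most 0.0616%, as quantile normalization between arrays leaves them, and whose lowest values cluster well above 0, as without background subtraction. GenomeStudio 2011.1 and R 2.15.0 are named, per the submitters' processing notes; filters are not given in the sources used here. The 16 columns of another table (signals with detection p-values) match no sample label by name and were not used.

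Background was corrected with normexp (offset 50), followed by quantile normalization and log2 in limma 3.58.1 (R 4.3.3). The background threshold of 169.9 is the mode of all intensities plus 1.645 times the spread of the values below it, and probes above it on at least 2 arrays were kept (14461). Of 25697 probes, 23978 carried 1 gene symbol, 0 several and 1719 none, and symbols were checked against RefSeq (GRCm38.p6) for 23962 probes, of which 0 changed. Genes with several probes were read at the probe of highest mean. A limma model with 1 coefficient per group (lmFit and eBayes, two-sided) was fitted over the 8 arrays and 10040 genes, with Benjamini-Hochberg adjustment. The median standard error was 0.10 for LT against LPS and 0.11 for the other comparisons.

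Values in every array are given in each comparison for the 12 largest called changes without overlap of the arrays, and for 12 genes in every case (Mpo, Elane, Prtn3, Ctsg, Ltf, Camp, Ngp, Mmp8, Mmp9, Cebpe, Csf3r and Hdc). The 37 genes, the other lists and the tests were chosen with earlier results of these data known. On simulated data with 10040 genes, 200 were changed in 1 group, with independent normal noise. Changes of 0.5 (log2) were recovered in 72% of cases for LT against LPS, 49% in LPS against PBS and 59% in LT against PBS. Changes of 1 were recovered in 99%, 97% and 98%. In the data far more genes differed (26.2% higher and 30.6% lower in LPS than in PBS arrays), which changes the adjusted threshold. The rates thus describe the simulated setting and not these comparisons. The alternatives were the background correction and its offset, scaling in place of quantiles, the filter, the probe rule, the groups in the fit, a variance trend, array weights, a block for the replicate number and leaving out each array.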

Additional observations from a re-analysis of the deposited data

How the results depend on the processing

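Of 108 results for single genes (36 genes in 3 comparisons), 82 kept their call and direction under all 19 alternatives, 8 of which leave out 1 array. Of 62 results past the test, 49 did so, 13 results not past the test passed it under some alternative, and 0 reversed. The sign changed in 27 cases that passed the test in neither fit, over 11 genes and with no log2 change above 0.189 in size. Beside the calls that rest on single arrays, Mpo in LT against LPS arrays lost its call with the mean of its 3 probes (adjusted p = 0.16), and Ms4a3 without background correction, with offset 16, without the filter, in the fit of both groups alone and with PBS 3 as number 2 in the block (adjusted p = 0.050 to 0.076). In the same comparison Hdc was called lower with a variance trend (0.018). In LPS against PBS arrays, Ltf was called lower with the mean of its probes (log2 change -1.01, adjusted p = 9.6e-05).

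The number of genes of the list lower in LT than in LPS arrays, 1 in the fit reported, was 2 without background correction, with the mean of all probes and with a variance trend, and 1 to 2 without 1 array, while 1 to 4 were higher. In LPS against PBS arrays, 3 in place of 5 were lower with offset 16, and 2 to 6 without 1 array. In LT against PBS arrays 2 to 7 were lower without 1 array. Over all genes, 232 in place of 360 were lower in LT than in LPS arrays without the filter, and without 1 array 144 to 391 were lower and 267 to 763 higher (267 and 153 without LT 1, 379 and 144 without LPS 1, 364 and 174 without LPS 3, higher and lower).

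Without background correction the median log2 change in LPS against PBS arrays was 0.36 for primary granule genes, 0.49 for secondary granule genes and 0.72 for transcription factors, and in LT against PBS arrays 0.60 for primary and 0.31 for secondary granule genes. With offset 16 these were 0.63, 1.07 and 0.83, and 1.11 and 0.73. With the stricter filter, which drops Cebpa, the transcription factors had 1.28 in LPS and 1.17 in LT against PBS arrays, and with the mean of all probes primary granule genes had 0.38 and 0.66. Without 1 array, in LT against LPS arrays the medians were 0.26 to 0.44 for primary granule genes and -0.15 to -0.059 for transcription factors. In LPS against PBS arrays they were 0.66 to 0.90 for secondary granule and 0.67 to 0.96 for maturity genes. In LT against PBS arrays they were 0.79 to 0.98 for primary granule, 0.38 to 0.56 for tertiary granule and 0.54 to 0.91 for maturity genes. The cause of these shifts was not tested.

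The fit reported held no term for the replicate number. The correlation of residuals within the 7 pairs that share a number ran from -0.19 to 0.30, with 3 over 0.1. Between LT and LPS arrays it was 0.30 for number 2, 0.28 for number 3 and 0.05 for number 1. The lowest value was that of LT 3 with PBS 3, whose number differs between title and description. Structure shared by LT and LPS arrays of 1 number thus remains possible, and its source was not tested. With the replicate block, 3 genes of the list in place of 5 were lower in LPS than in PBS arrays, and Prtn3 was called higher in LT than in LPS arrays (adjusted p = 0.033, or 0.040 with PBS 3 as number 2). In LT against PBS arrays the block called Calr lower (adjusted p = 0.017) and Ceacam10 higher (0.0021), and lost the call of Fcnb (0.057). Dim genes such as Mpo, Ctsg, Ms4a3, Mmp8, Ceacam10 and Cebpa have the least signal over background, and the brightest the least room to rise.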

Other observations

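The arrays numbered 2 in both endotoxin groups stood at the same end of their group for several genes of the list, a pattern chosen after the values were seen and not tested. Olfm4 was highest in LT 2 (2869, against 2412 and 1652 in the other LT arrays) and in LPS 2 (2709, against 1648 and 1543). Ngp was also highest in LT 2 and LPS 2, as were Gca and Padi4. At the other end, Mpo, Elane, Prtn3 and Ctsg were each lowest in LT 2 among the LT arrays and in LPS 2 among the LPS arrays. The 4 primary granule genes and the others named here thus varied in opposite directions between arrays of the same group, by intensities such as 255 in LT 2 against 307 and 317 in the other LT arrays for Elane. No PBS array numbered 2 in its title was analysed here.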
